A study of Rattus norvegicus with 415 samples.

Results

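ENSRNOG00000012067 is a rat gene, known here by its Ensembl identifier alone, whose expression in adipose tissue took 2 separate levels. Samples were chosen by the deposited value of this gene alone, and every sample of the series was placed. A sample was called low when the gene was below 20 FPKM (reads divided by gene length and by a sequencing depth factor) and high when it was at 20 FPKM or above. This gave 44.8% of all samples as low and 55.2% as high. These are sets of samples made from 1 measured gene, not groups of the study, and the gene's own difference between them is a description with no test.

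The series measured RNA from adipose tissue, taken at an age of 17 weeks from outbred rats (Rattus norvegicus) under no named treatment, in work that mapped metabolic traits to the genome. All samples carried the same tissue and age label, and the labels named no genotype, strain or sex for a sample. The titles are a number followed by a suffix, and the labels do not say what either stands for. The numbers fell into 3 blocks separated by gaps above 500, which held 9.40%, 55.9% and 34.7% of the samples (39 in block 1), and the blocks served as possible batches. Nothing in the labels says how samples with the same number are related, so p-values measure the spread between samples, some of which may share an origin.

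Outbred rats descend from several inbred founder strains and carry a mosaic of their chromosomes. A DNA variant in or close to a gene can change how much of its RNA is made, which is called a cis expression quantitative trait locus. The amount of that RNA can then differ between samples according to the alleles they carry, with or without separate levels. Genes on the same stretch of chromosome can differ between the same samples because their variants are inherited together. Genotypes were not analysed here, and neither low nor high samples were tied to a variant. Symbols, positions and sequences were not used here for these identifiers, so the function of the genes, their place relative to each other, any reads shared between overlapping or near-identical genes, and marker genes of the tissue could not be read.

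Between 2139163 and 6248214 reads fell in genes in each library. The low and the high samples had median totals of 4627064 and 4588186 reads. Mean log2 reads were 22.12 in both, with SDs of 0.20 in low and 0.18 in high samples, and the difference, high minus low, was 0.000317 (two-sided permutation test, p = 0.987). High samples made up 48.7% of block 1, 56.5% of block 2 and 54.9% of block 3, a spread that did not pass Fisher's exact test (two-sided p = 0.664). The share was 50.3% among samples with suffix 3 and 58.99% among those with suffix 4 (Fisher's exact test, two-sided p = 0.109).

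In low samples ENSRNOG00000012067 ran from 1.98 to 16.1 FPKM, with a median of 5.72 and a mean of 6.09 ± 2.14 (SD). In high samples it ran from 37.1 to 132.8 FPKM, with a median of 70.97 and a mean of 73.7 ± 15.3 (SD). No sample lay between 16.1 and 37.1 FPKM, so the 2 sets did not overlap and any threshold inside that gap gives the same sets. The 3 samples just below the threshold had 16.1, 13.8 and 11.8 FPKM, and the 3 just above it had 37.1, 46.7 and 47.1 FPKM. The mean was 12.1-fold higher in high samples. The low level was not zero: the gene model is 3191 bp long and held a median of 86 reads in low samples, with a lowest count of 27, against a median of 1031 and a range of 544 to 1642 in high samples.

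**Figure D1:**
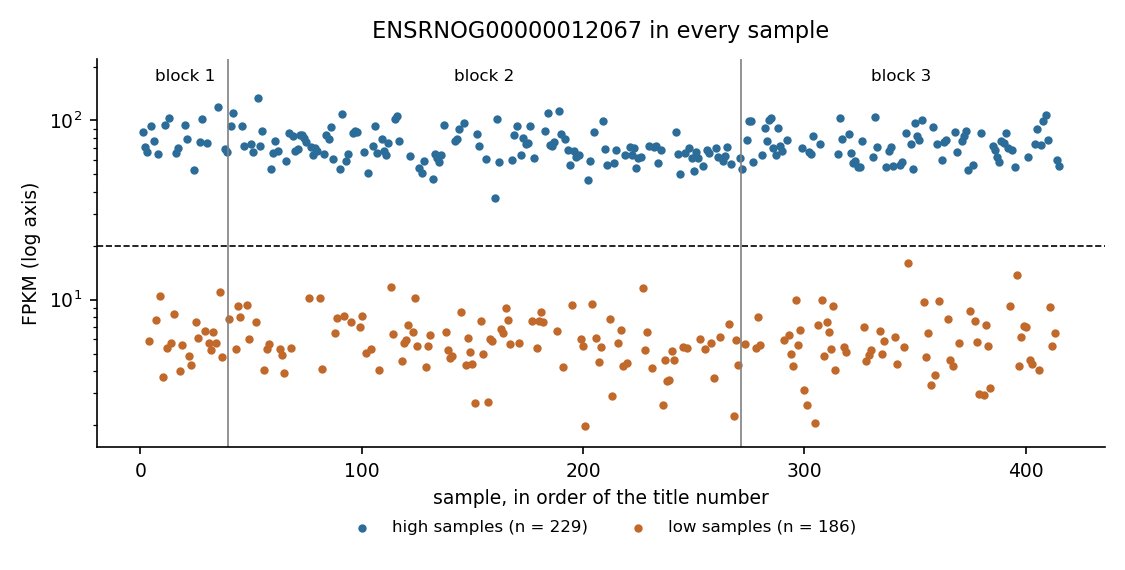
FPKM of ENSRNOG00000012067 (vertical log axis) in every sample, in order of the title number (horizontal axis), with low samples in orange and high samples in blue. The dashed line marks 20 FPKM and the grey lines separate the 3 blocks; the empty band from 16.1 to 37.1 FPKM runs through all blocks.

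Both levels were found in every block. The low mean was 6.27 ± 1.94, 6.03 ± 1.96 and 6.14 ± 2.47 FPKM (SD) in blocks 1, 2 and 3. The high mean was 80.3 ± 16.8, 72.4 ± 15.4 and 74.2 ± 14.6 FPKM (SD). Relative spread was wider in the low set, with a coefficient of variation of 35.1% against 20.8%. On the log2(FPKM + 1) scale the SD was 0.42 in low samples, where counting reads alone gives 0.14, and 0.29 in high samples, where counting alone gives 0.04.

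Samples with the same title number mostly stood at the same level. Pairs of samples with a shared number were formed from every such number. Both samples were low in 33 pairs, both were high in 55, and 17 pairs held 1 of each, so 83.8% of pairs matched. Permuting the levels over samples within blocks gave a mean of 50.2%, and the permutation test for more matches (one-sided) gave its smallest possible p, 1e-05. The match was 43 of 49 pairs in block 2 and 40 of 47 in block 3, each with a permutation p of 1e-05 (Benjamini-Hochberg adjusted over the 3 blocks, 1.5e-05). In block 1 it was 5 of 9 pairs (permutation p = 0.470, adjusted p = 0.470). Of the 8 title numbers that stood on 3 samples, 3 were low throughout, 5 were high throughout and 0 were mixed. Within a level, the resemblance of same-number samples (an intraclass correlation of the log2 value) was 0.244 over the 55 pairs of high samples and -0.0554 over the 33 pairs of low samples, values given without a test.

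Which other genes follow the level was asked by fitting limma to log2(FPKM + 1) of all 16130 other genes that exceeded 1 FPKM in 20% of samples or more, with the block as a covariate. Differences are high minus low, on a scale that understates the change of low genes. At a Benjamini-Hochberg adjusted p under 0.05, 32 genes differed, or 0.198% of those tested. Of these, 19 (0.118%) were higher and 13 (0.0806%) were lower in high samples. At an unadjusted p under 0.05 there were 1202 genes. Over all genes tested, the median absolute difference was 0.02 on the log2 scale, and the median signed difference was -0.00048. In bulk tissue, fewer cells of a type and less RNA per cell cannot be told apart.

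**Figure D2:**
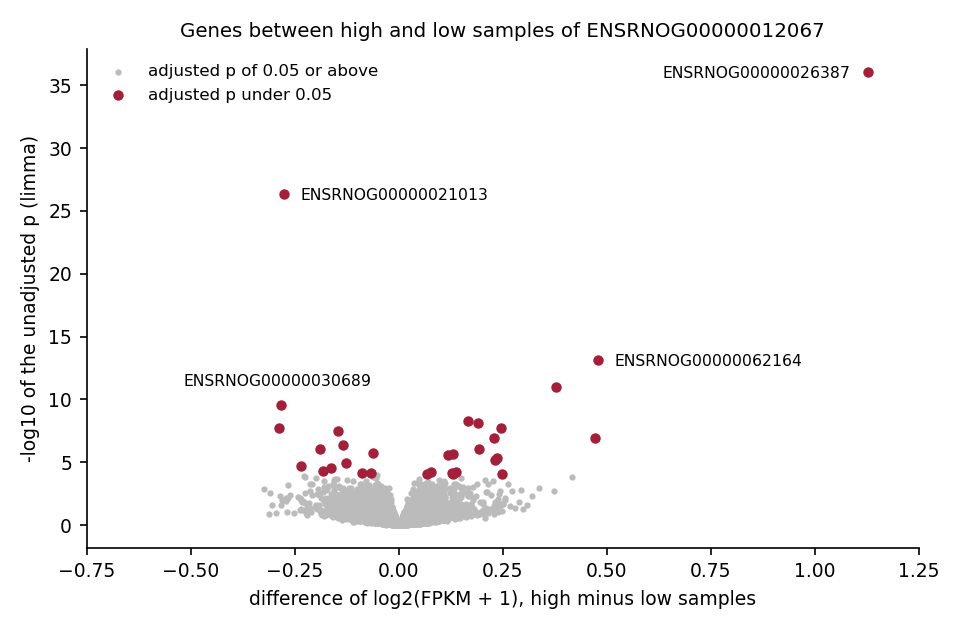
Difference of log2(FPKM + 1) between high and low samples (horizontal axis, high minus low) against the -log10 of limma's unadjusted p (vertical axis) for 16130 genes. The 32 genes with an adjusted p under 0.05 are red; ENSRNOG00000026387 stands at 1.13 and the other red genes lie between -0.29 and 0.48.

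The differences were small beside the step in ENSRNOG00000012067 itself, whose means were 3.43 apart on the same scale. Among the 32 genes the absolute difference ran from 0.06 to 1.13, with a median of 0.19. It exceeded 1 in 1 gene and 0.25 in 7 genes. Measured in SDs between samples of the same level, the median was 0.477 and the highest 1.38, so the ranges of low and high samples overlapped widely for most of the 32. The identifiers named below are the 2 genes of each direction with the smallest adjusted p.

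ENSRNOG00000026387, 792 bp long with 27.5 reads per sample, differed most and had the highest Pearson's r with ENSRNOG00000012067 over all samples among the 16130 genes, 0.589, which partly restates the step. It ran from 0.261 to 27.3 FPKM in low samples, with a median of 3.57, and from 0.596 to 27.95 FPKM in high samples, with a median of 8.88. The difference was 1.13 on the log2 scale (SE 0.08, limma adjusted p = 1.418e-32). Its mean rose from 4.77 ± 4.27 to 9.66 ± 4.21 FPKM (SD), a ratio of 2.03. The ranges overlapped, but the overlap was lopsided: 6 high samples (2.62%) fell below the median of the low samples, while 29 low samples (15.6%) exceeded the median of the high samples. The level of ENSRNOG00000012067 accounted for 32.2% of this gene's variance within blocks.

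ENSRNOG00000062164, 683 bp long, was the other rise. It ran from 0 in 12 samples to 6.15 FPKM in low samples, with a median of 1.19, and from 0 in 4 samples to 5.85 FPKM in high samples, with a median of 2.30. The difference was 0.48 on the log2 scale (SE 0.06, limma adjusted p = 3.729e-10). Low and high samples overlapped over nearly the whole range. The gene rested on a median of 3.5 reads in low and 7 reads in high samples, which limits how well its size is known.

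ENSRNOG00000021013 fell, by little but with a narrow spread. This gene model of 3181 bp ran from 4.82 to 15.1 FPKM in low samples, with a median of 9.90, and from 4.56 to 15.4 FPKM in high samples, with a median of 7.96. The difference was -0.28 on the log2 scale (SE 0.02, limma adjusted p = 3.658e-23). The mean of the high samples, 8.13 ± 1.56 FPKM, was 0.808 of the low mean, 10.1 ± 1.85 FPKM (SD). Although the full ranges overlapped, 12.4% of low samples lay below the high median and 11.4% of high samples lay above the low median. On 132.3 reads per sample, the level accounted for 24.6% of the variance within blocks.

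ENSRNOG00000030689, 2264 bp long, was the other fall. It ran from 4.38 to 28.2 FPKM in low samples, with a median of 14.5, and from 4.17 to 28.2 FPKM in high samples, with a median of 10.7. The difference was -0.28 on the log2 scale (SE 0.04, limma adjusted p = 8.888e-07), and the level accounted for 9.21% of the variance. About as many low samples lay below the high median (24.2%) as high samples above the low median (19.2%). With level and block removed, this gene's residuals correlated with those of another of the 13 falling genes at r = 0.831 over all samples, the highest among the 496 pairs of the 32 genes. The median absolute r over those pairs was 0.0829, near the 0.0877 between the 32 genes and all others. The highest absolute r between the 32 genes and all others was 0.856.

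**Figure D3:**
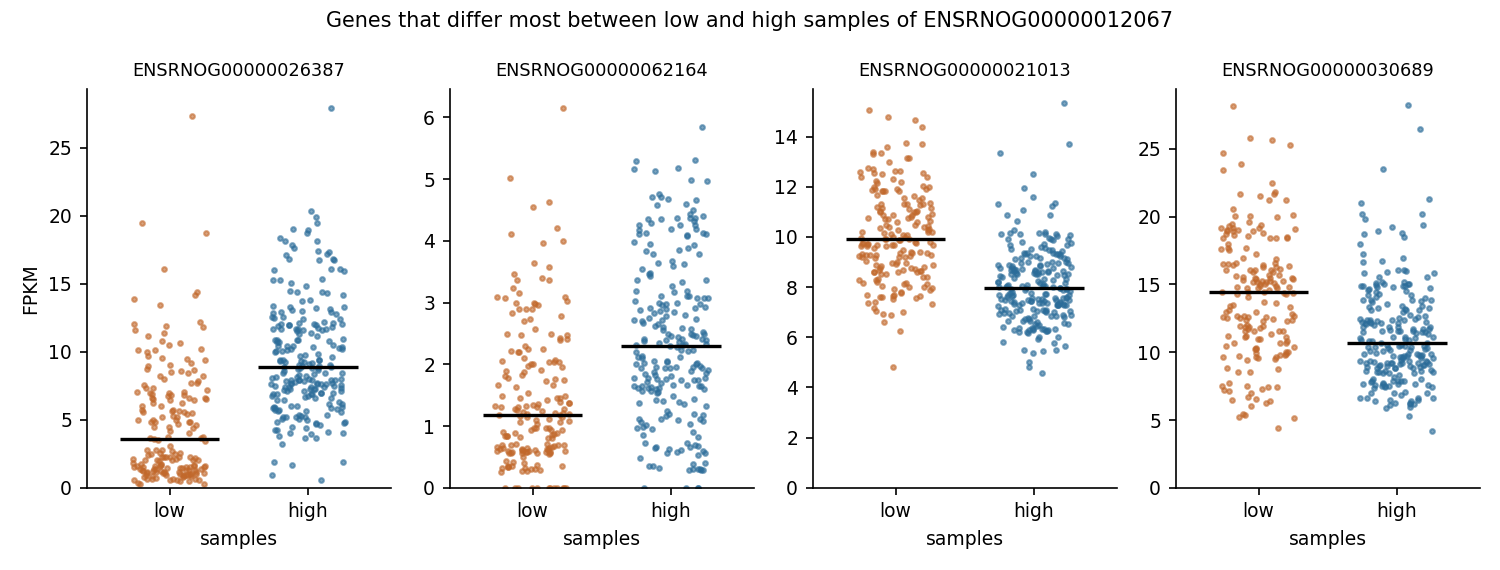
FPKM (vertical axes from 0) of the 4 named genes in low samples (orange) and high samples (blue), 1 point per sample, with black bars at the medians. The medians moved from 3.57 to 8.88, from 1.19 to 2.30, from 9.90 to 7.96 and from 14.5 to 10.7 FPKM, and the ranges overlapped in all 4 genes.

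The values of ENSRNOG00000026387 in the low samples could be divided into a lower and an upper part, but no empty band lay between them. The lower part ended at 3.535 FPKM and the upper part began at 3.604 FPKM, on both sides of the low median of 3.57 FPKM. Low samples held a median of 12.5 reads of this gene, which limits how well the parts are separated. Its values in the low samples were better described by 2 normal components with a shared variance than by 1 (Bayesian information criterion better by 33.9, component means 3.61 SDs apart), with component centres near 1.46 and 7.46 FPKM. In high samples 2 components were also better, by 10.2 on the same criterion, with means 3.84 SDs apart. The smaller component held 2.23% of the high samples and 48.95% of the low samples. The point between the components of the low samples, 3.58 FPKM, was set after the values were seen and serves as a description only. It divided the low samples into 93 lower, at 1.503 ± 0.725 FPKM (SD), and 93 upper, at 8.04 ± 3.82 FPKM. Of the high samples 6 (2.62%) were lower, and the upper ones had 9.87 ± 4.05 FPKM. Of the 99 samples in the lower part, 93 (93.9%) were low samples of ENSRNOG00000012067, against 44.8% of all samples. Upper values were found at both of its levels. ENSRNOG00000026387 was picked for its difference between the levels, and the dividing point came from the low samples. The excess of low samples in the lower part therefore partly restates that choice. The lower part held 11 of 20 low samples in block 1, 52.5% in block 2 and 44.6% in block 3, and it held 0, 6 and 0 high samples. Among the 33 same-number pairs of low samples, 9 were both lower, 15 both upper and 9 mixed. The matching share, 72.7%, was not set beside a permuted share and was not tested.

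**Figure D4:**
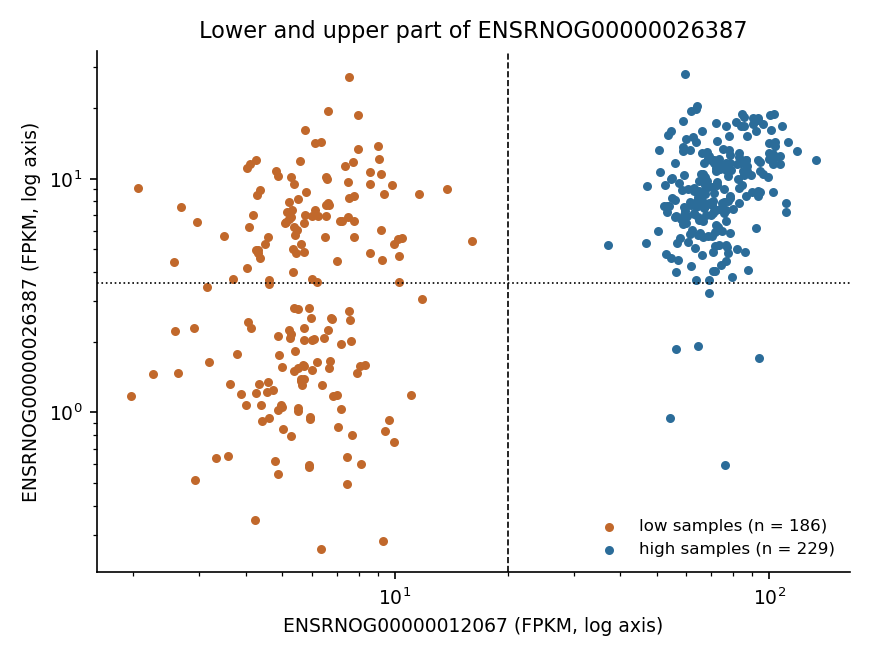
FPKM of ENSRNOG00000026387 (vertical log axis) against FPKM of ENSRNOG00000012067 (horizontal log axis), 1 point per sample, with lines at 3.58 and 20 FPKM. The lower right corner holds 6 high samples, while the low samples are split into 93 below and 93 above the horizontal line.

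The other named genes were read in the same division. Within the low samples ENSRNOG00000021013 had 10.03 ± 1.79 FPKM (SD) in the lower and 10.1 ± 1.92 in the upper part of ENSRNOG00000026387, against 8.13 ± 1.56 in the high samples. ENSRNOG00000012067 itself had 5.72 ± 1.84 and 6.46 ± 2.36 FPKM in these 2 parts. ENSRNOG00000062164 had 1.61 ± 1.16 and 1.33 ± 1.11 FPKM, and ENSRNOG00000030689 had 14.9 ± 5.21 and 13.5 ± 3.90 FPKM. These values were not tested.

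The blocks gave a comparison between separate samples, since no title number stood in 2 blocks. Within block 2 alone 17 genes were called (0.105%), 8 higher and 9 lower in high samples. In block 3, 13 of these 17 (76.5%) had the same sign, against 49.2% of all genes. In block 3, 11 of the 17 had that sign with an unadjusted p under 0.05, a p that 5.83% of all genes had there in either direction, and 4 were called there too. Block 3 alone gave 11 called genes (0.0682%), 10 higher and 1 lower. In block 2, all 11 had the same sign and 10 also had an unadjusted p under 0.05, a p that 8.26% of all genes had there in either direction. The 4 genes called in both blocks were 23.5% of the block 2 list and 36.4% of the block 3 list. Block 1, with 39 samples, gave 0 called genes by limma (0%). At an unadjusted p under 0.05 it gave 518 genes (3.21%), where an even spread of p gives 5%. The 32 genes were called on all blocks together, so their signs within blocks are no separate evidence; 29 had the same sign in all 3 blocks. A limma test of whether the difference itself varied between blocks called 0 of 16130 genes (0%). At an unadjusted p under 0.05 there were 747 genes, fewer than the 5% of an even spread.

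ENSRNOG00000026387 differed by 1.10, 1.10 and 1.18 on the log2 scale in blocks 1, 2 and 3, and its smallest block gave an unadjusted limma p of 0.000182 (adjusted p = 0.974). ENSRNOG00000021013 differed by -0.30, -0.27 and -0.27 (limma adjusted p = 0.166, 9.917e-11 and 2.013e-06). ENSRNOG00000062164 differed by 0.34, 0.52 and 0.46 (limma adjusted p = 0.985, 3.045e-05 and 0.0113). ENSRNOG00000030689 was the least even, at -0.10, -0.32 and -0.28 (limma adjusted p = 0.985, 0.00264 and 0.0547). Its medians in block 1 were 13.8 FPKM in 20 low and 13.1 FPKM in 19 high samples.

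With the title number as a replicate block 24 genes were called, all of them among the 32. Taking 1 sample per title number, which also left fewer samples, gave 20 genes, 19 of them among the 32. With 5 principal components of all genes as covariates 94 genes were called (0.583%), and these included all 32.

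The 32 genes were compared with all tested genes on further features, as a description. The first values of components and of resemblance still hold the difference between the levels, which can add to both. Their median length was 2239 bp against 2039 bp, and their median of 84.7 reads per sample was below the 147.5 of all genes. A pair of components separated by over 3 SDs, the smaller holding 5% of samples or more, described 6 of the 32 genes (18.8%) and 11.55% of all genes. The resemblance of same-number samples had a median of 0.379 in the 32 genes and 0.228 in all genes. After the level and the block were removed these medians were 0.337 and 0.204.

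A second question was whether genes followed the amount of ENSRNOG00000012067 inside a level, which the threshold did not use. In high samples, 7307 genes (45.3%) changed with its log2(FPKM + 1) in a limma fit with block as covariate, 3399 rising and 3908 falling. The median absolute slope was 0.17 log2 units per log2 unit in these genes and 0.12 in all genes tested. In low samples 838 genes (5.2%) changed with it, 476 of them rising and the others falling, with a median absolute slope of 0.12 in these genes and 0.05 in all genes tested. The genes called in both fits numbered 548, which is 7.5% of the high list and 65.4% of the low list, and 532 of them had the same sign.

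**Figure D5:**
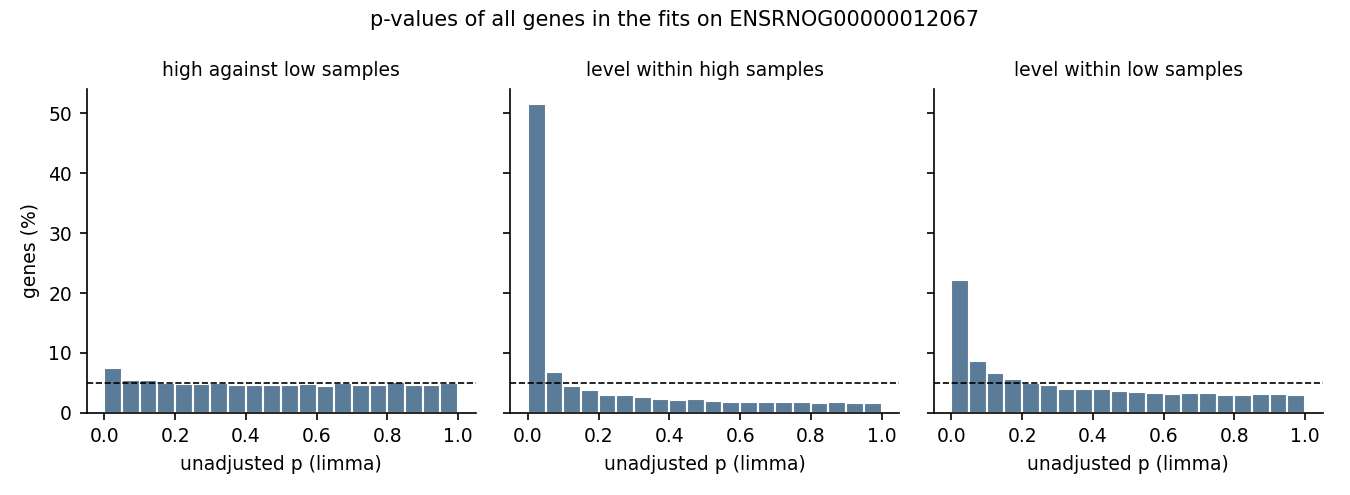
Share of the 16130 genes (vertical axis, percent) in each bin of limma's unadjusted p (horizontal axis) for the difference between levels, the slope on the amount within high samples and the slope within low samples. The first bin, p under 0.05, holds 7.45%, 51.5% and 22.2% of genes, against the 5% that the dashed line marks for an even spread.

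Sequencing depth and the main axes of variation moved with the amount inside the high level. Log2 reads per sample correlated with it at r = -0.348 in high samples (rho = -0.278; two-sided permutation p of 1e-05 and 6e-05), and at r = -0.314 when the 2 samples with the most extreme depth were left out. In blocks 1, 2 and 3 r was -0.553, -0.409 and -0.153 (permutation p = 0.0126, 1e-05 and 0.177), and rho was -0.602, -0.325 and -0.127 (permutation p = 0.00729, 0.00015 and 0.265). Without the 2 farthest samples r was -0.603, -0.355 and -0.110. The sign was the same in all 3 blocks, the relation did not pass the test in block 3, and a difference between blocks was not tested. In low samples r was 0.00361 (rho = 0.0790; permutation p = 0.962 and 0.285), 0.0851 without the 2 farthest samples, and between -0.0574 and 0.0253 in the 3 blocks. Of these 8 relations, 3 passed Benjamini-Hochberg adjustment for r, all in high samples (adjusted p = 4e-05 over all blocks, 0.0335 in block 1 and 4e-05 in block 2). The first 5 principal components of all other genes held 25% of the variance of the amount in high samples, 6.15% in low samples, and 1.01% of the variance of the level itself. These shares come from sets of different size, and no share under chance was set beside them.

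Those covariates changed the counts inside the levels. With log2 reads as a covariate 2837 genes (17.6%) were called in high and 1362 (8.44%) in low samples, and 36 between the levels. With 5 principal components 0.874% of genes were called in high samples and 1.94% in low samples, while the genes called between the levels rose in number from 32 to 94. Within blocks 1, 2 and 3 the high samples gave 0 (0%), 6262 (38.8%) and 608 (3.77%) genes. At an unadjusted p under 0.05 block 1 gave 1423. The part of depth in these counts was not tested further.

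Of the 32 genes that differed between levels, 14 (43.8%) also changed with the amount in high samples, near the 45.3% of all genes, and 12 of the 14 did so in the direction of the step. Over all genes tested, 4478 of the 7307 that changed with the amount in high samples had the direction of their own difference between the levels. With 5 principal components 7 of the 32 (21.9%) changed with it, against 0.874% of all genes. In low samples 1 of the 32 did, against 5.2% of all genes. ENSRNOG00000026387 rose with the amount in high samples, with a slope of 0.64 log2 units per log2 unit (SE 0.13, limma adjusted p = 2.522e-05) and of 0.83 with 5 principal components (adjusted p = 0.00017). In low samples its slope was 0.42 (SE 0.18, limma adjusted p = 0.136). ENSRNOG00000021013 had a slope of -0.13 in high samples (SE 0.06, limma adjusted p = 0.0386, and 0.105 with log2 reads as covariate) and of -0.27 with 5 principal components (adjusted p = 0.00017). ENSRNOG00000062164 had a slope of -0.05 in high samples (SE 0.14, limma adjusted p = 0.810). ENSRNOG00000030689 rose with the amount in high samples, against the direction of its step, with a slope of 0.30 (SE 0.09, limma adjusted p = 0.00538, and 0.258 with log2 reads as covariate), and the slope was -0.05 with 5 principal components (adjusted p = 0.870).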

How the data were processed

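Adipose RNA of 415 rat samples was sequenced as 75 bp single-end reads, per the labels' protocols. STAR, Picard, featureCounts and DESeq2 are named, without versions or roles, in the submitters' processing notes; the genome build is not given in the sources used here. The deposited table holds 18358 genes and no unit in its header. Its values are FPKM: per the deposited values, each is a whole number of reads over a whole-number gene length and a sample factor, and 100% of values came out whole within 0.001. The FPKM values were therefore already scaled by the authors with 1 factor per sample. Reads per sample (2139163 to 6248214) limit the precision of low genes.

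Levels were compared with limma 3.58.1 in R 4.3.3 on log2(FPKM + 1), with Benjamini-Hochberg adjustment, after tests on simulated data. Single values were tested by 100000 permutations or Fisher's exact test (scipy 1.17.1, R). Python 3.11.15 was used. The named genes are the 2 of each direction with the smallest adjusted p, the number printed for identifiers without names. The gene table at hand matched 0 of 18358 identifiers, so the planned gene lists, cell type markers, symbol families and neighbouring genes were not run. The threshold, the comparisons and the lists were chosen with earlier results of these data known. The difference of slopes, the fits inside the high samples by block, and 5 components in low samples were added after the data were seen, as was the division of ENSRNOG00000026387.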

Additional observations from a re-analysis of the deposited data

Results flagged for a closer look

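The slope of a gene on the amount of ENSRNOG00000012067 differed between high and low samples in 3226 of 16130 genes (20%; limma, interaction of level and amount, adjusted p under 0.05). The signed slope was higher in high samples in 1852 and lower in 1374 of these genes. A gene that fell more steeply in high samples is counted as lower, so the counts do not say where slopes were steeper. Of the 3226 genes, 3052 were among those called in high samples. With log2 reads as a covariate 0.589% of genes were called, and with 5 principal components 0.694%. Counting error is a larger part of the spread of the amount in low samples (0.14 of an SD of 0.42) than in high samples (0.04 of 0.29). Its part in the difference was not tested.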

How the results depend on the processing

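The count of 32 genes between levels stayed within 1.5 times under 12 of 17 alternatives: quantile normalization (34), a pseudocount of 0.1 (33), all genes kept (37), only genes passing in 80% of samples (28), no covariate (33), log2 reads (36), a spline of the title-number rank (34), thresholds of 10 (26) and 30 FPKM (32), a mixture (32), voom on the recovered reads (30), and the title number as a replicate block (24, all among the 32). It was 94 with 5 principal components and 20 with 1 sample per title number, where the cause was not tested, and 0, 17 and 11 within blocks 1, 2 and 3, where fewer samples were fitted. All 32 genes kept their sign where tested, except 3 within block 1. For the 4 named genes 62 of 67 values kept direction and side of the threshold, 5 lost the call (4 within block 1, 1 within block 3) and 0 reversed. Quantile normalization gave 18 higher and 16 lower genes, voom 15 and 15, 5 principal components 40 and 54, and the main fit 19 and 13. Of the genes tested, 45.3% followed the amount within high samples. This share was 17.6% with log2 reads and 0.874% with 5 principal components. It was 0%, 38.8% and 3.77% within blocks 1, 2 and 3. Within low samples 5.2% became 8.44% with log2 reads and 1.94% with 5 principal components. The share with unequal slopes, 20%, became 0.589% and 0.694% under the same covariates. The cause was not tested. The share of same-number pairs at the same level ran from 81.9% to 83.8%. The difference in log2 reads, not called at any threshold, changed sign to -0.00233 at 10 FPKM, which moved 9 samples to the high set.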
